A study of Arabidopsis thaliana with 13 samples.

Results

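A set of 70 probe sets with a strong daily rhythm and a fitted peak between clock hours 12 and 16 was examined in Arabidopsis thaliana seedlings. Clock hour here means the hour of the course modulo 24. The members were selected by their measured values on all 13 arrays, from the 13611 non-control probe sets whose mean log2 signal lay above 5. For each one, log2 signal was fitted with a straight line in time plus a cosine and a sine of 24 h. A member had an amplitude (height of the curve above its mean) of at least 0.5 on the log2 scale. In addition the cosine and sine explained at least 0.65 of the variance left by the line, the partial R2. PWD (AT5G26570) and genes named UGT, ALDH, SCPL or BGLU were left out by the rule, which removed 3 probe sets that met every limit. Of the 619 strong rhythms of any peak time, 151 peaked at hours 8 to 12 and 56 at hours 16 to 20. The amplitude, the partial R2 and the peak hour chose the members, so they are given as a description with no test.

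Total RNA of Col-0 whole seedlings at developmental stage 1.0 was hybridised to Affymetrix ATH1 arrays, on which several short oligonucleotides together read 1 transcript. All 13 samples shared one treatment, MS agar plates with 3% sucrose in a room kept at 22 C under a photoperiod of 12 h. Sampling began at hour 26 and ended at hour 74, in steps of 4 h and with a single array at each step, so each of the clock hours 2, 6, 10, 14, 18 and 22 was sampled in 2 successive cycles and hour 2 once more at the end. Hour 0 is not defined in the labels, which also leave unsaid if lights went on cycling during sampling and if samples came from separate plates. P-values therefore measure the scatter of single arrays round a curve, and precision is limited by how few arrays there are. Fewer cells of a type and less RNA per cell cannot be told apart in whole seedlings. The median signal of the arrays lay between 46.8 and 50.9 after scaling to one target. Of 8 shoot markers, 5 had a named probe set, with a summed signal of 10304 to 15028 over the arrays, and 3 of 5 root markers summed to 2592 to 3559. Nearly all of the root sum was PYK10 (2524 to 3492), a root myrosinase, while EXPA7 (21.7 to 60.8) and EXPA18 (35.3 to 64.9), genes of root hairs, lay near the level limit.

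In plants the circadian clock is a loop of transcription factors in which morning proteins such as CCA1 repress genes of the evening, and evening proteins in turn repress the morning genes. Outputs of the clock reach metabolism, chloroplast function and growth, so that many enzymes are made at a set time of day. Of the 70 probe sets, 24 had a single gene in the platform annotation used here and are named below. A further probe set was assigned to more than one gene and 45 had none, so these are described by counts and ranges only. Among the named genes, 6 have a gene name that tells a function and 18 are listed by locus alone, for which no role is given.

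The whole set rose most steeply between clock hours 6 and 10 and declined more slowly. From clock hour 2 to 6 most members already rose. The median change on the log2 scale was 0.30 from hour 26 to 30 and 0.49 from hour 50 to 54, with 54 and 58 of the 70 rising. Every one of the 70 probe sets was higher at clock hour 10 than at hour 6 in both cycles (32.1% of all tested probe sets were), by a median of 1.10 on the log2 scale from hour 30 to 34 and of 0.76 from hour 54 to 58. From hour 10 to 14 the median change was -0.08 and -0.01, with 31 and 35 of the 70 still rising. It was -0.20 and -0.27 from hour 14 to 18, -0.58 and -0.49 from hour 18 to 22, and -0.47 and -0.44 from hour 22 to 2. The steepest step up was thus larger than any step down in the median. The descent was spread over 3 intervals, and the rise over those from hour 2 to 10. In single probe sets the largest step up exceeded the largest step down in 58 of the 70. This was also so in 125 of the 151 strong rhythms with a fitted peak at hours 8 to 12 and in 25 of the 56 at hours 16 to 20. On the arrays of clock hour 14, hours 38 and 62, all 70 probe sets lay above their own mean, and on the 3 arrays of clock hour 2 none did. For 43 of the 70, all 6 arrays of clock hours 10, 14 and 18 lay above all 7 arrays of clock hours 22, 2 and 6, which held for 1.32% of all tested probe sets. These counts follow in part from the choice of members and are a description.

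**Figure D1:**
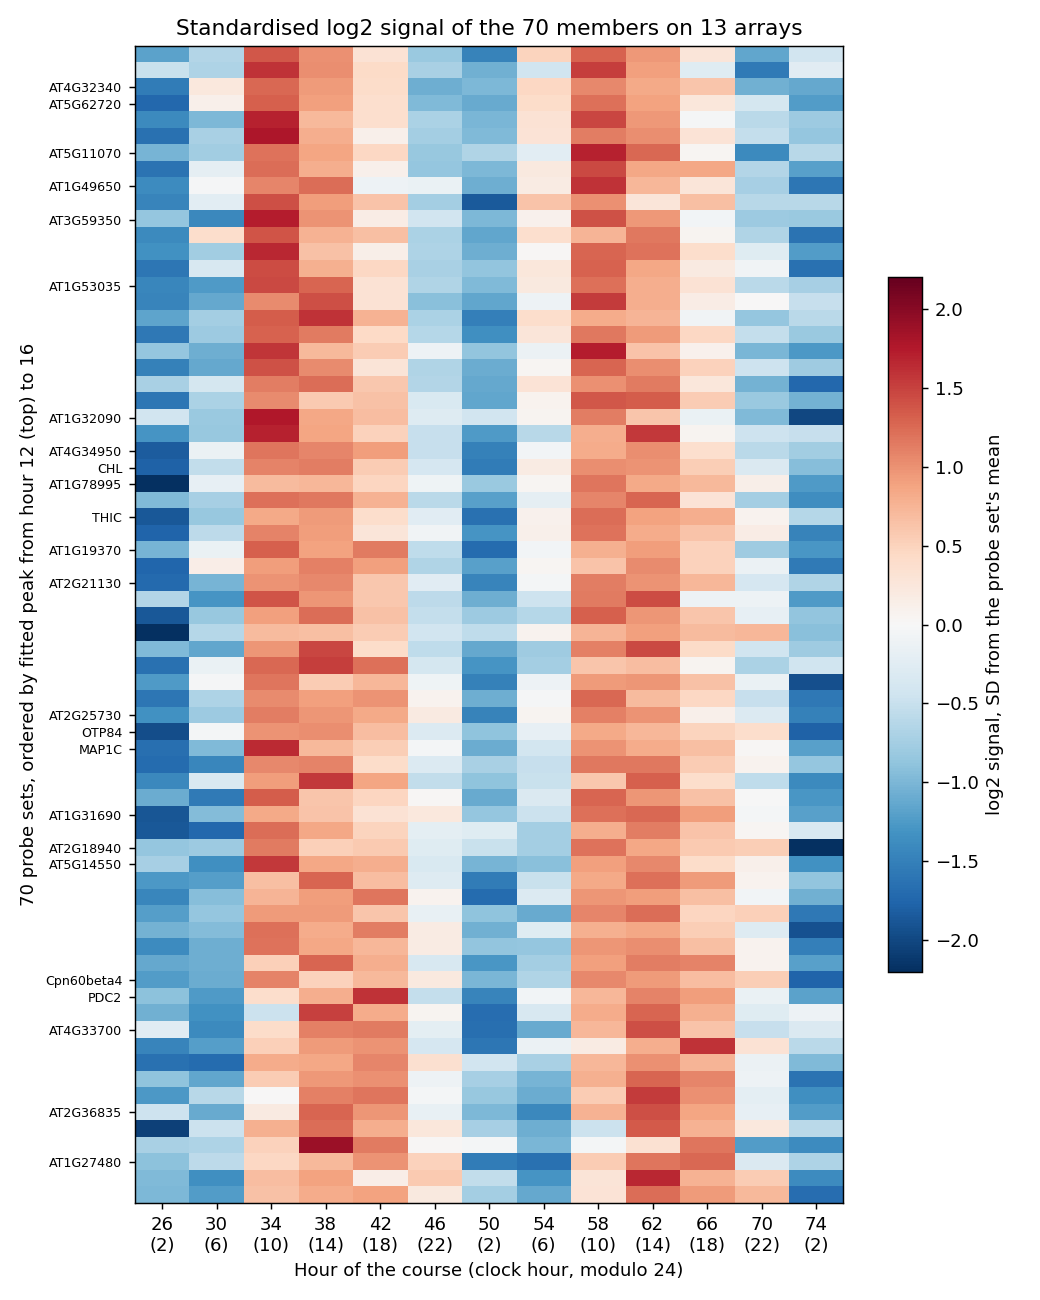
Each row is 1 of the 70 probe sets, ordered by fitted peak, and each column is 1 array; colour gives log2 signal in standard deviations from the row's mean. The red blocks begin at clock hour 10 (hours 34 and 58) in most rows, and in most of the lowest rows, with the latest peaks, the strongest red lies at clock hour 14 or 18.

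The single highest array of a cycle was most often that of clock hour 10, before the window that names the set. In the first cycle 39 of the 70 probe sets were highest at hour 34, 22 at hour 38 and 9 at hour 42. In the second cycle 35 were highest at hour 58, 32 at hour 62 and 3 at hour 66. The label of a peak at hours 12 to 16 therefore describes the centre of a broad daily maximum that ran from clock hour 10 to 18. The lowest array was that of clock hour 2 for 54 of the 70 in the first cycle and 53 in the second. Both cycles had their highest array at the same clock hour in 39 of the 70. The rule favours highest arrays at clock hours 10 to 18, so this count follows in part from the choice of members. The same share over all tested probe sets was not counted.

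A curve of a 24 h and a 12 h cosine with linear time, fitted to describe this shape, put the highest point at a median clock hour of 11.75. It lay at hours 8 to 12 in 39 of the 70 probe sets, at 12 to 16 in 28 and later in 3. In 65 of the 70 the rise from the lowest to the highest point was shorter than the fall, with a median of 9.15 h against 14.85 h. A rise shorter than the fall was also found in 119 of the 151 probe sets with a fitted peak at hours 8 to 12 (78.8%) and in 27 of the 56 at hours 16 to 20 (48.2%), against 92.9% here, and these shares were not tested against each other. When the 12 h terms were tested with limma's moderated F, 0 of the 70 were called at an adjusted p under 0.05, where 0.022% of all tested probe sets were called. At an unadjusted p under 0.05 there were 35 of the 70 (50%), against 12.2% of all tested probe sets, 47 of the 151 and 13 of the 56. The share was as high in strong rhythms with a fitted peak at hours 0 to 4, with 39 of 76 (51.3%), and was 34.7% over all 619. The limit on partial R2 keeps probe sets with a large 12 h component out of all 3 windows. Without hour 50, 2 of the 70 passed in this F test, 1 of them AT4G32340 (adjusted p = 0.023), where 24 of all 13611 tested probe sets passed. In place of 35 of the 70, 21 (30%) had an unadjusted p under 0.05 at a 22 h period and 3 (4.29%) at a 26 h period. The shares of all tested probe sets were 5.61% and 3.65%.

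**Figure D2:**
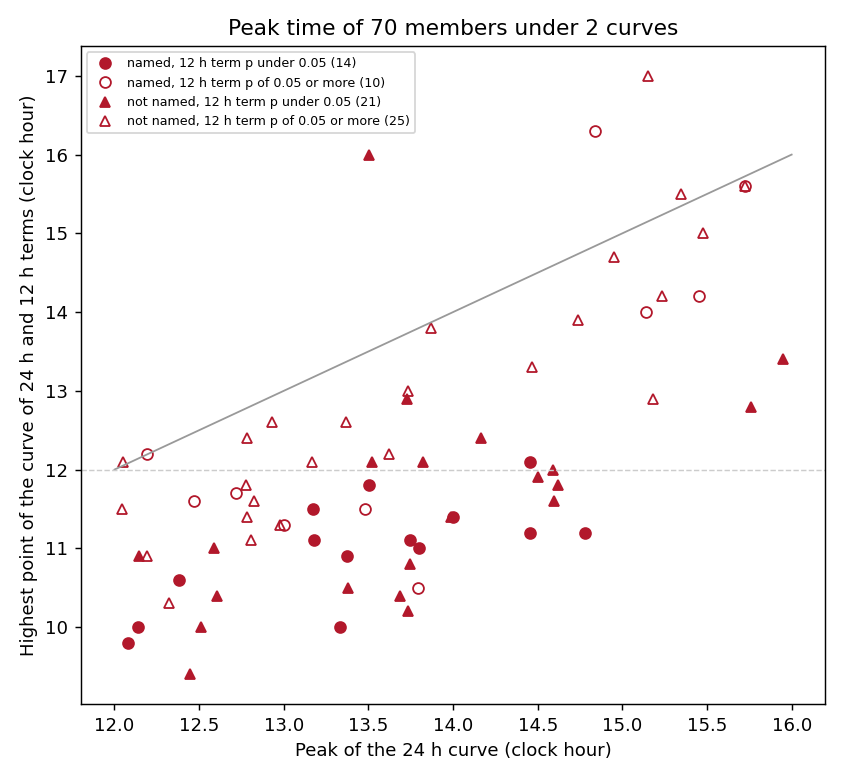
Each point is 1 of the 70 probe sets: the peak of the 24 h curve is on the x axis and the highest point of the curve with an added 12 h term on the y axis, both in clock hours, with circles for named members and filled symbols where the 12 h term had an unadjusted p under 0.05. Most points lie below the grey line of equal times, and 39 lie below the dashed line at hour 12.

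Among the members with a known function, THIC (AT2G29630) makes the pyrimidine part of thiamine, vitamin B1, in the chloroplast, and its transcription is known to be under clock control. Its signal was 404 at hour 26, 619 at hour 30, 1242 at hour 34, 1295 at hour 38, 1035 at hour 42, 790 at hour 46, 441 at hour 50, 914 at hour 54, 1463 at hour 58, 1271 at hour 62, 1223 at hour 66, 904 at hour 70 and 673 at hour 74. The 6 arrays of clock hours 10, 14 and 18 all lay above the other 7. The fitted change from trough to peak was 2.67-fold (amplitude 0.71 ± 0.08 SE, 13 arrays; amplitudes are on the log2 scale throughout), with a peak at hour 13.4 ± 0.47 (SE). Each trough array was higher than the one before, and THIC had the smallest unadjusted p for drift among the named members, given below.

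CHL (AT3G47860), the chloroplastic lipocalin, belongs to a family of small proteins that bind lipophilic molecules and is known from the protection of thylakoid lipids against oxidation. Its signal was 88.7 at hour 26 and 181 at hour 30, then 470 at hour 34, 477 at hour 38 and 344 at hour 42, and it fell to 201 at hour 46 and 103 at hour 50. In the second cycle it was 276 at hour 54, 449 at hour 58, 440 at hour 62, 340 at hour 66, 207 at hour 70 and 145 at hour 74. The arrays of clock hours 10 and 14 differed little within each cycle, and the 6 arrays of hours 10 to 18 stood above all others. The fitted change was 4.27-fold (amplitude 1.05 ± 0.09 SE) with a peak at hour 13.2 ± 0.38, the largest among the 6 members with a known function.

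Cpn60beta4 (AT1G26230) is a subunit of the chloroplast chaperonin, a barrel-shaped complex that folds proteins. Its signal went from 75.4 at hour 26 and 79.1 at hour 30 to 166 at hour 34, then 136 at hour 38, 146 at hour 42, 123 at hour 46 and 81.3 at hour 50. It was 91.4 at hour 54, 164 at hour 58, 158 at hour 62, 144 at hour 66, 137 at hour 70 and 62.7 at hour 74. The values stayed high until clock hour 22 in both cycles and were low only at hours 2 and 6. The 24 h curve gave a 2.17-fold change (amplitude 0.56 ± 0.09 SE) and a peak at hour 14.8 ± 0.71, whereas the curve with a 12 h term was highest at hour 11.2 (12 h terms, limma unadjusted p = 5.49e-04, adjusted p = 0.17).

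OTP84 (AT3G57430), a pentatricopeptide repeat protein needed for C-to-U editing of certain chloroplast transcripts, was among the dimmest members. Its signal was 19.5, 34.8, 47.8, 48.2, 43.4 and 32.3 from hour 26 to hour 46, and 27.1, 33.4, 45.6, 44.2, 41.1, 39.8 and 20.6 from hour 50 to hour 74. The highest values of the 2 cycles, 48.2 and 45.6, were close to each other, and the 3 arrays of clock hour 2 were the 3 lowest. The fitted change was 2.01-fold (amplitude 0.504 ± 0.094 SE), at the lower limit of the rule, with a peak at hour 13.8 ± 0.81.

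MAP1C (AT1G13270) is a methionine aminopeptidase, an enzyme that removes the first methionine of new proteins. Its signal was 102 at hour 26, 135 at hour 30, 396 at hour 34, 270 at hour 38, 252 at hour 42, 198 at hour 46, 129 at hour 50, 171 at hour 54, 303 at hour 58, 282 at hour 62, 264 at hour 66, 204 at hour 70 and 123 at hour 74. Hour 34 stood highest and a slow decline followed in both cycles. The fitted change was 2.62-fold (amplitude 0.69 ± 0.10 SE) with a peak at hour 13.8 ± 0.61, and the curve with a 12 h term was highest at hour 11.0.

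PDC2 (AT5G54960), a pyruvate decarboxylase, turns pyruvate into acetaldehyde in fermentation. Its signal was 116 at hour 26, 101 at hour 30, 193 at hour 34, 227 at hour 38, 308 at hour 42, 135 at hour 46, 93.6 at hour 50, 162 at hour 54, 220 at hour 58, 253 at hour 62, 237 at hour 66, 156 at hour 70 and 104 at hour 74. The highest array was at clock hour 18 in the first cycle and 14 in the second. PDC2 was thus one of 2 named members whose rise was not shorter than the fall, the other being AT5G11070, with 12.0 h for each. Its fitted change was 2.60-fold (amplitude 0.69 ± 0.08 SE) with a peak at hour 14.8 ± 0.51, and with a 12 h term the highest point was at hour 16.3.

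**Figure D3:**
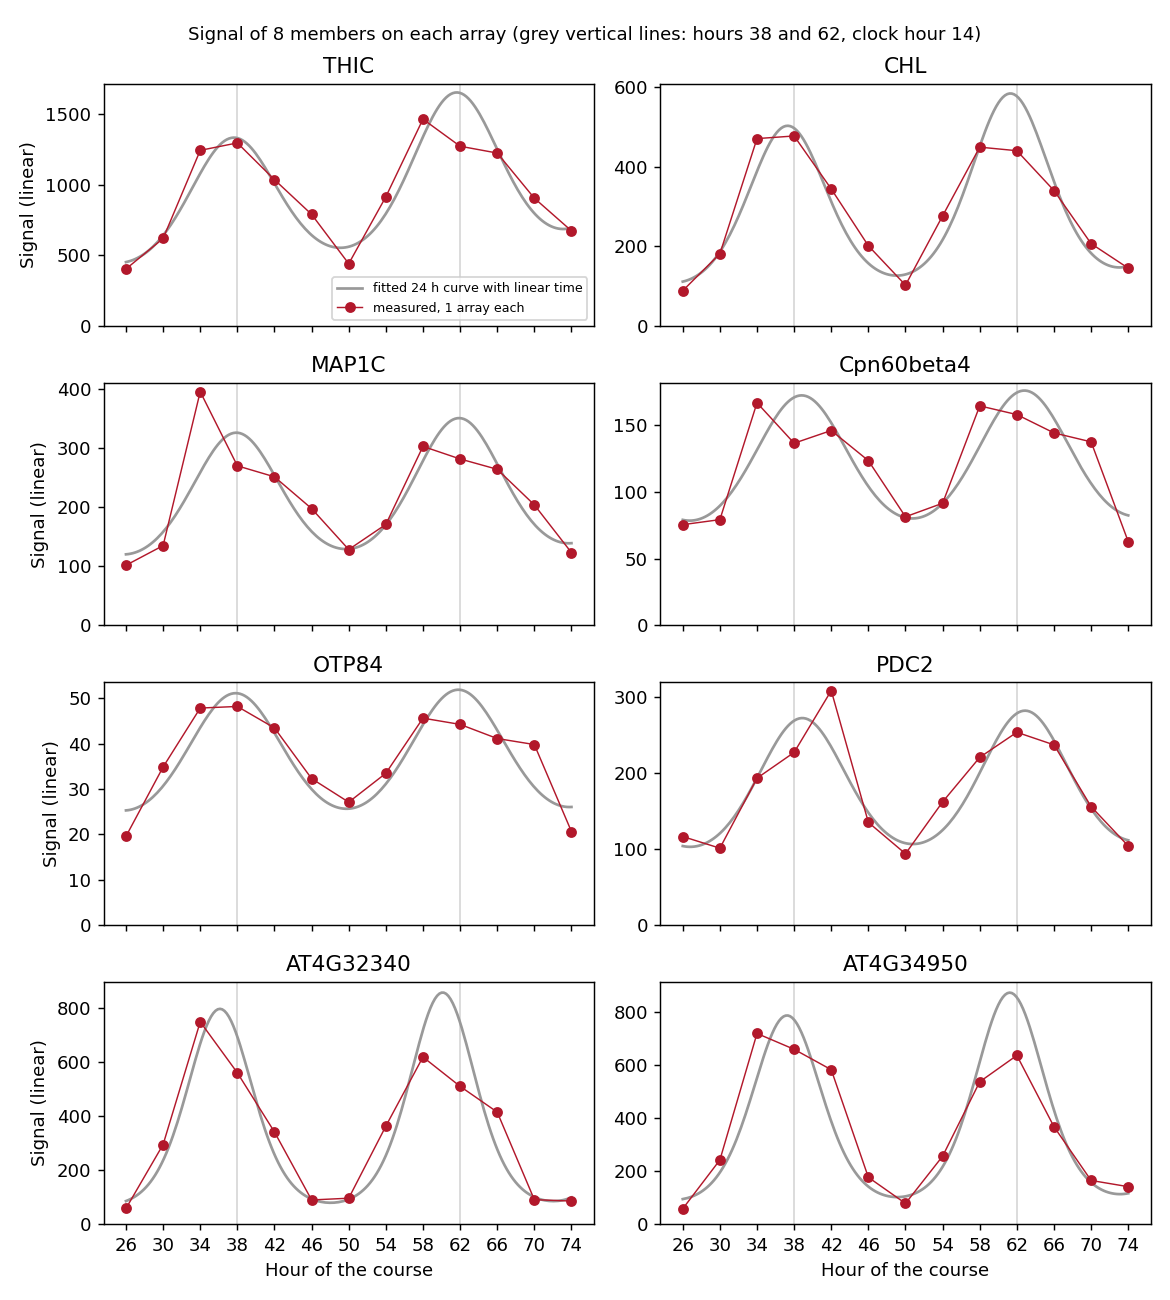
Linear signal (y axis) of THIC, CHL, MAP1C, Cpn60beta4, OTP84, PDC2, AT4G32340 and AT4G34950 on each of the 13 arrays against the hour of the course, with the fitted 24 h curve in grey and clock hour 14 marked. MAP1C and Cpn60beta4 jump at hour 34 and decline slowly, PDC2 is highest at hour 42, and the measured second maximum of AT4G32340 (617) and AT4G34950 (638) lies below the fitted curve.

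The largest swings among named members belonged to genes listed by locus. AT4G32340 had a signal of 58.3 at hour 26, 294 at hour 30, 747 at hour 34, 559 at hour 38, 341 at hour 42, 89.7 at hour 46, 96.1 at hour 50, 362 at hour 54, 617 at hour 58, 509 at hour 62, 414 at hour 66, 90.7 at hour 70 and 85.6 at hour 74. It was already raised at clock hour 6 and back near its lowest level by hour 22, a 10.4-fold fitted change (amplitude 1.69 ± 0.14 SE) with the earliest named peak, hour 12.1 ± 0.33. AT4G34950 followed with 8.10-fold (1.51 ± 0.14) and a peak at hour 13.2 ± 0.39. Its signal was 58.5, 78.6 and 142 on the 3 arrays of clock hour 2, and 720, 661 and 584 at hours 34, 38 and 42 against 538, 638 and 368 at hours 58, 62 and 66. The first maximum of both genes was the higher one.

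AT1G78995 changed 6.15-fold (amplitude 1.31 ± 0.20 SE, peak at hour 13.3 ± 0.65), but its lowest signal was 7.81, at hour 26. With 16 added to every signal before the log the change was 3.67-fold, and without hour 26 it was 4.15-fold. AT2G21130 changed 3.81-fold (0.97 ± 0.09, hour 13.5 ± 0.39), with signals of 76.9, 88.3 and 137 at clock hour 2 and of 336, 348, 361 and 333 at hours 34, 38, 58 and 62. AT5G62720 changed 3.03-fold (0.80 ± 0.08, hour 12.1 ± 0.39) and resembled AT4G32340 in being raised by clock hour 6, with signals of 367 and 417 at hours 30 and 54 against 166, 216 and 205 at clock hour 2.

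AT1G31690 was measured by a second probe set, which was too dim to be a member. The member's signal was 45.7, 68.3, 147, 134, 118, 113, 71.0, 83.7, 172, 176, 151, 101 and 61.2 from hour 26 to hour 74, a 2.72-fold fitted change with a peak at hour 14 ± 0.54. The dim probe set gave 11.9, 6.98, 54.02, 41.1, 49.7, 21.7, 7.41, 7.37, 80.6, 95.9, 50.3, 33.7 and 17.2 on the same arrays, with a mean log2 signal of 4.70, an amplitude of 1.499 against 0.722 (log2 scale) and a peak at hour 14.8. Both were lowest at clock hours 2 and 6 and highest at hour 62. They read the same RNA on the same arrays, so the second is a check of the probes and not of the plants.

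The other 12 named members changed between 2.02-fold and 2.70-fold. Their fitted peaks ran from hour 12.2 (AT5G11070) to 15.7 (AT1G27480). AT5G14550 had mean signals over the arrays of a clock hour of 24.1 at hour 2, 23.0 at hour 6, 62.9 at hour 10, 55.5 at hour 14, 48.1 at hour 18 and 35.6 at hour 22. AT3G59350 had 49.6, 55.5, 117, 94.8, 68.9 and 54.7 at the same clock hours, AT1G32090 had 32.3, 39.7, 82.4, 61.3, 51.5 and 35.7, and AT1G53035 had 53.7, 67.5, 129, 117, 88.7 and 62.4. All 4 were highest at clock hour 10. AT5G11070 (highest at 245), AT1G49650 (166), AT2G25730 (262), AT1G19370 (52.8) and AT2G18940 (95.3) also had their highest mean at hour 10.

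A later group was highest at clock hours 14 or 18. AT2G36835 had mean signals of 227, 204, 331, 419, 372 and 275 at clock hours 2, 6, 10, 14, 18 and 22, with a fitted peak at hour 15.5 ± 0.44 and a change of 2.02-fold. AT4G33700 had 87.4, 73.0, 129, 161, 143 and 96.8 (hour 15.1 ± 0.65). AT1G27480 had 80.4, 79.3, 141, 167, 178 and 123 (hour 15.7 ± 0.53), the latest named peak. For each of these 3 genes the mean at clock hour 6 was the lowest, by a small margin to hour 2 in AT1G27480, where the early genes AT4G32340 and AT5G62720 were already rising.

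Fitted peaks of the 70 probe sets were spread through the window, with 22 at hours 12 to 13, 25 at 13 to 14, 12 at 14 to 15 and 11 at 15 to 16. The standard error of a named peak lay between 0.33 h and 0.88 h. In the order of the 24 named peaks, none of the 23 gaps between neighbours exceeded the combined standard error of the pair, the widest being 0.45 h between AT1G31690 and AT2G18940. The order of neighbours is thus not resolved, while the first and last, AT4G32340 and AT1G27480, lay at hours 12.1 and 15.7.

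Some values lay close to the limits, and those of probe sets with a single gene are given here. Inside the amplitude limit were OTP84 (0.504), AT2G36835 (0.508) and AT4G33700 (0.534), and just outside were Mfl1 (0.499), AT5G39410 (0.497) and AT1G58110 (0.496). For partial R2 the nearest inside were AT2G18940 (0.66), AT1G32090 (0.73) and Cpn60beta4 (0.75), against AT3G01260 (0.617), CAF1 (0.613) and AT4G17140 (0.605). At hour 12, AT4G32340 (12.08), AT5G62720 (12.14) and AT5G11070 (12.19) stood inside, and AT4G16146 (11.98), AT1G07050 (11.90) and AT2G37130 (11.90) outside. At hour 16, AT1G27480 (15.73), AT2G36835 (15.46) and AT4G33700 (15.14) stood inside, and AT4G12830 (16.20), NdhN (16.43) and AT1G17090 (16.57) outside. In mean log2 signal OTP84 and AT1G19370 (both 5.14) and AT5G14550 (5.21) lay just above the limit. Just below it were AT3G23170 (4.88), the cold-regulated clock gene COR28, AT4G33980 (4.76), and the dim probe set of AT1G31690 (4.70). In all, 23 probe sets met every other limit but were too dim.

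No transcript of the set was called for drift over the 48 h. In limma's moderated test of the linear time term, 0 of the 70 passed an adjusted p under 0.05, where 1.01% of all tested probe sets did. At an unadjusted p under 0.05 there were 12 of the 70 (17.1%, 10 of them rising), against 11.1% of all tested probe sets. The share was larger over the 619 strong rhythms of any peak time, with 135. It was also larger in both neighbouring windows, with 47 of the 151 at hours 8 to 12 and 12 of the 56 at hours 16 to 20. Without hour 26 the count of members was 6 of the 70 (8.57%), the same share as over all tested probe sets (8.57%). Without hour 30 or hour 58 it was 7 (10%), against 11.6% and 11% of all tested. It rose to 18 (25.7%) without hour 34 or hour 62, against 11.7% and 11.3%, and to 16 (22.9%) without hour 46, against 10.7%. Without any other single array it lay between 8 and 13. It was 5 (7.14%) without moderation or without hours 26 and 74, against 10.7% and 8.57% of all tested. At a 26 h period it was 3 (4.29%, against 9.03%), and without the 24 h terms it was 0 (against 8.99%). The slope was above 0 in 46 of the 70 (65.7%), against 52.1% of all tested, with a median of 0.07 on the log2 scale per 24 h. It was above 0 in 60.7% of the 619 strong rhythms, in 72.8% of those peaking at hours 8 to 12 and in 55.4% at hours 16 to 20. Among named members THIC had a slope of 0.31 ± 0.10 (SE, log2 per 24 h, unadjusted p = 0.0055, adjusted p = 0.17), AT2G21130 of 0.29 ± 0.11 (adjusted p = 0.28) and AT1G31690 of 0.24 ± 0.11 (adjusted p = 0.42). The largest named slope, 0.49 ± 0.24, was that of AT1G78995 (adjusted p = 0.49), and the most negative, -0.28 ± 0.14, that of AT1G32090 (adjusted p = 0.47). No adjusted p in limma's test passed for any of these, which does not show that their levels were constant.

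**Figure D4:**
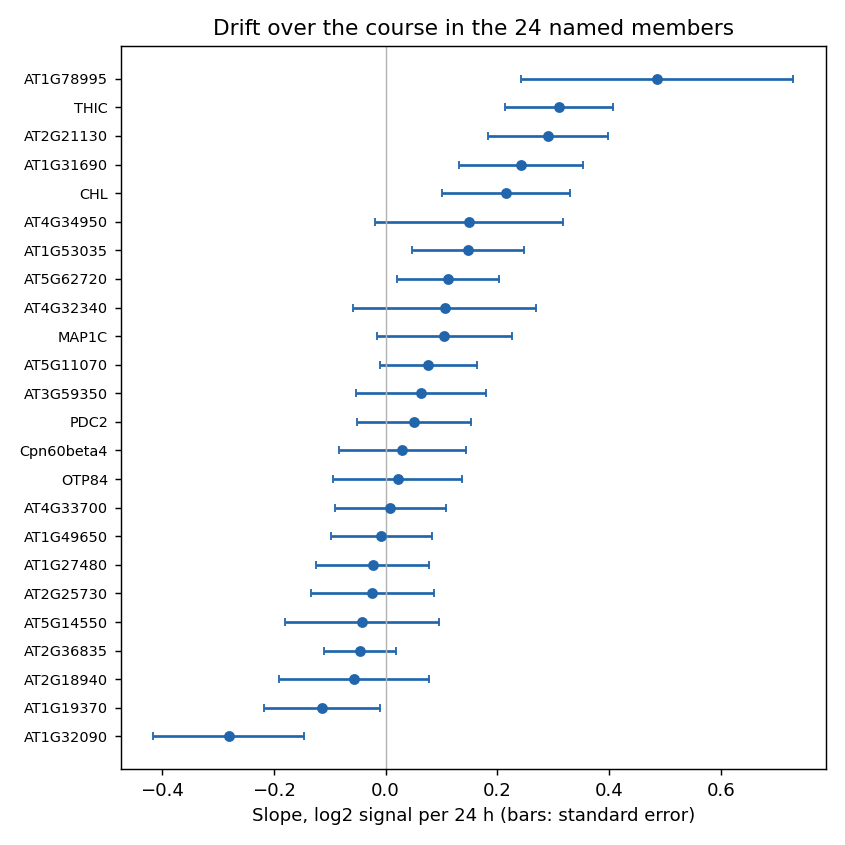
The slope of each of the 24 named members is shown in log2 signal per 24 h on the x axis, with bars of 1 standard error. Slopes run from -0.28 (AT1G32090) to 0.49 (AT1G78995), 16 of the 24 lie above 0, and none passed limma's test after adjustment.

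No difference between the cycles was detected with these arrays. In limma's moderated F test of hours 50 to 70 against hours 26 to 46, 0 of the 70 differed at an adjusted p under 0.05, as did 0% of all tested probe sets. At an unadjusted p under 0.05 there were 3 of the 70 (4.29%), against 3.28% of all tested. The fitted amplitude was smaller in the later cycle in 53 of the 70 (50.2% of all tested probe sets), with a median ratio of 0.87 ± 0.27 (jackknife SE over 12 arrays), but in 35 of the 70 without hour 62 and in 37 without hour 70, where the median ratios were 0.99 and 0.98. The fitted peak came earlier in the later cycle in 52 of the 70 (56.5% of all tested), with a median shift of -0.49 h ± 1.00 (jackknife SE), which was -1.31 h without hour 34 and -0.15 h without hour 46. Both medians lay within their jackknife SE of no change. Each array is a different time point, so this SE shows how far the medians depend on single arrays. It does not measure the spread between plants. The neighbouring windows had median ratios of 0.94 (hours 8 to 12) and 1.04 (hours 16 to 20), and median shifts of -0.80 h and -0.73 h. AT1G27480 had the largest ratio among the 70, 1.79, and the only unadjusted p under 0.05 among named members (0.038; adjusted p = 0.9998 in limma's test). The count at an unadjusted p under 0.05 was 17 of the 70 (24.3%) without hour 34, against 5.33% of all tested probe sets. It was 6 (8.57%) without hour 38 or 50 and at a 22 h period, against 4.01%, 3.99% and 4.17%. It was 1 (1.43%) without hour 30, 42, 54 or 66 and with moderation without a trend, against 2.67% to 4.72%. Without moderation it was 0, against 3.34%, and at a 26 h period it was 40 (57.1%), against 7.49%.

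Between the cycles, the median level of the 70 differed most at clock hour 6, where 1 array of each cycle was compared without a test. The median level relative to each probe set's mean was -0.53 at hour 30 and -0.08 at hour 54 on the log2 scale, and 58 of the 70 were higher at hour 54, as were 52.3% of all tested probe sets. The medians at clock hour 10 were 0.64 and 0.63, and those at hour 14 were 0.56 and 0.61. Over all 13611 tested probe sets the medians at hours 30 and 54 were 0.008 and 0.021. They also rose in the neighbouring windows, from 0.39 to 0.57 (hours 8 to 12) and from -0.83 to -0.71 (hours 16 to 20). The median signal of the array was 48.4 at hour 30 and 50.9 at hour 54.

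**Figure D5:**
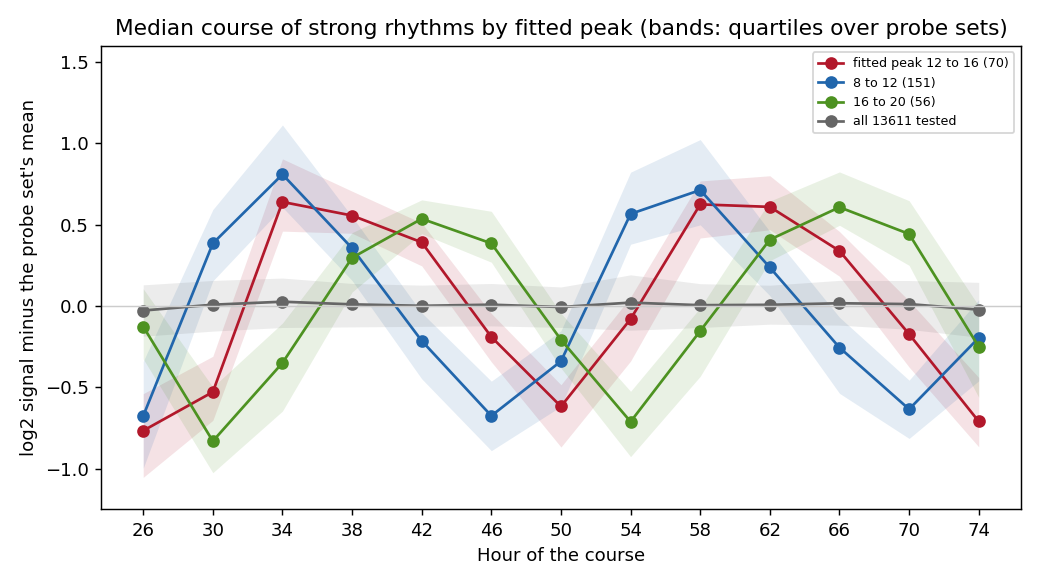
The median log2 signal relative to each probe set's own mean (y axis) is drawn against the hour of the course for the 70 members (red), strong rhythms with fitted peaks at hours 8 to 12 (blue) and 16 to 20 (green), and all tested probe sets (grey), with bands for the quartiles. The red line climbs to 0.64 at hour 34 and 0.63 at hour 58 and falls more slowly than it rose.

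When the period was left free between 20 h and 30 h, the best fit of the 70 probe sets had a median of 23.5 h, with quartiles of 23.5 h and 24.5 h. It was 23.5 h for the window of hours 8 to 12 and 23 h for that of hours 16 to 20. A 24 h fit chose all of these sets, so periods near 24 h are favoured.

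Other genes of the pathways around this time of day were few among the named probe sets. No list gene with a named probe set was a member of the set. Most list genes, TOC1, LUX, PRR3 and PRR5 among them, had no named probe set. Since 45 members have no gene in the annotation, it is not known if such list genes are among them. Beside each count stands the background that 18.4% of all tested probe sets were rhythmic in limma's F test at an adjusted p under 0.05, as were all 70 members, which the rule fixed. Of 13 evening clock genes only GI was named and tested, and it peaked earlier, at hour 9.02 (amplitude 1.39, adjusted p = 3.03e-04). COR27 and COR28, which repress clock genes, had fitted peaks inside the window (hours 12.9 and 12.3) but mean log2 signals of 4.51 and 4.76. Of 14 genes of starch breakdown DPE1 was tested (rhythmic, hour 11.1). PWD, also a gene of starch breakdown, was not in this list and was left out of the set by the rule. Of 10 genes of branched-chain amino acid breakdown 6 were tested and 2 were rhythmic, MCCA (hour 7.79) and HML1 (hour 0.04). Both tested genes of sucrose metabolism, SPS4F (hour 18.7) and SPP2 (hour 20.8), were rhythmic and later. Of 11 tested autophagy genes 3 were rhythmic, ATG8E (hour 5.87), ATG8F (hour 4.86) and ATG8I (hour 6.30). AKINBETA1, a subunit of the energy-sensing SnRK1 kinase, was the one tested gene of the sugar starvation list (rhythmic, hour 7.46). No aquaporin of a list of 18 had a named probe set. RVE6, the one tested morning clock gene, was not called (adjusted p = 0.80).

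The 24 named loci were scattered through the genome, with 9 on chromosome 1, 5 on chromosome 2, 3 each on chromosomes 3 and 4, and 4 on chromosome 5. In the gene order of the TAIR10.1 assembly the closest pair, AT1G31690 and AT1G32090, were 41 protein-coding genes apart, so no 2 named members were neighbours. Of the 70 probe sets, 4 carry the suffix by which the array marks probes shared between transcripts, and none of these 4 is named here.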

How the data were processed

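The authors deposited 1 intensity per probe set and array on a linear scale. The submitters' processing notes name MAS5, without a version. All arrays share one target (a mean of 100.01 once the highest and lowest 2% of probe sets were dropped), which hides changes in total RNA. Detection calls were not used here.

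Log2 values of 13611 of 22746 non-control probe sets, those with a mean log2 signal above 5, were fitted with linear time and a 24 h cosine and sine in limma 3.58.1 (R 4.3.3; eBayes with an intensity trend), with p-values Benjamini-Hochberg adjusted over all of them. Tested were drift (linear time), added 12 h terms (F), and the interaction of the 24 h terms with the later cycle (F, 12 arrays of hours 26 to 70). Standard errors use the moderated variance. Scripts were tested on simulated data. The platform annotation gave 1 gene to 13513 probe sets (13436 matched to the TAIR10.1 table), several to 503 and none to 8730. Figures used matplotlib 3.10.9.

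The members, gene lists and tests were chosen with earlier results of these data known. Named by rule were the 20 single-gene members of largest amplitude, the 3 nearest each limit on either side, and list genes, which together covered all 24. The curve summaries with a 12 h term, and alternatives for them, were chosen after seeing the data. Promoter motifs and classes by product name were not analysed here. Alternatives changed scaling, offset, filter, variance model, period, terms and arrays.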

Additional observations from a re-analysis of the deposited data

How the results depend on the processing

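Drift calls among the 70 members stayed at 0 in all 22 alternatives, and calls for a difference between cycles at 0 in 18 of 19. At a 26 h period there was 1 call (a probe set without a named gene), where 12 of all tested probe sets were called. Calls for the 12 h harmonic were 0 in 20 of 21 alternatives, with 0 to 2 over those that left out a single array. The 2 calls, AT4G32340 and a probe set without a named gene, came without hour 50, where 24 of all tested probe sets were called. The number of probe sets that met the membership rule was 129 with a 22 h period and 30 with a 26 h period. Of these, 18 and 11 were among the 70. A peak counted modulo another period can fall in another window. Members lost in this way were not counted apart from those that missed the amplitude or partial R2 limit. The number that met the rule lay between 54 and 80 in the other alternatives on all or 11 arrays (54 with an offset of 16, all of them members). It lay between 61 and 85 with a single array left out. A rise shorter than the fall was found in 56 to 66 members (lowest without hour 66), and a highest point at hours 8 to 12 in 33 (without hour 34) to 47 (without hour 42). The median ratio of later to earlier amplitude ranged from 0.73 without hour 38 to 0.99 without hour 62. Amplitudes of the 24 named members moved by more than 1 standard error in 18 of 360 refits, 10 of them with the offset. No paired analysis was possible because each time point has 1 array. The lowest signal of 6 of the 24 named members lay under 32, the signal at the level limit, so their folds are the least certain.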
